A study of Mus musculus with 8 samples.

Results

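The Id inhibitors, the E proteins and Mist1 are regulators of transcription that share a helix-loop-helix fold, and 8 of their genes were followed among the 23284 mouse gene symbols measured: Id1, Id2, Id3 and Id4, the E-protein genes Tcf3, Tcf4 and Tcf12, and Bhlha15, which encodes Mist1. The first 7 were taken as families. Bhlha15 was selected on its own counts in these libraries, being lower in Notch3IC, so its difference between the groups is given as a description with no test. All 8 genes passed the filter on low counts, Id4 through its Notch3IC libraries alone, so the test given for Id4 is from the fit with no such filter.

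E proteins bind the E-box, the DNA word CANNTG, as dimers with each other or with tissue-restricted basic helix-loop-helix partners. Id proteins keep the helix-loop-helix but lack the basic stretch that touches DNA, so an Id protein paired with an E protein holds it off the E-box, and Id genes are well known targets of bone morphogenetic protein (BMP) signaling through Smad factors. Mist1 is a tissue-restricted partner known for its role in secretory cells such as pancreatic acinar cells, gastric chief cells and plasma cells.

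The libraries came from ID8 IP2, a mouse ovarian surface epithelial line used to model ovarian cancer, cultured in serum-containing medium and carrying a lentiviral luciferase-mCherry reporter in every group. Notch3IC lines were infected with a pCCL lentivirus for the HA-tagged Notch3 intracellular domain (codons 1664 to 2318) with IRES-GFP, which signals without ligand, and Control lines with the empty pCCL vector. There were 4 libraries per group, in Sets 1 to 4, each set being a matched pair of lines from its own infection, and by the study's methods later tests pointed to mycoplasma in all of its ID8 IP2 lines, of either group. The question was which genes differ when Notch3 signaling is switched on. Total counts per library ran from 19013578 to 28208072 in Control and from 15524262 to 27107061 in Notch3IC. Values are normalized counts, meaning counts brought to a common library size by edgeR's TMM factors. A gene was called when its Benjamini-Hochberg adjusted p in edgeR's quasi-likelihood test was below 0.1 over the 12430 genes tested and its log2 fold change was at least 1 in either direction, and 4.14% of all genes tested were called (3.4% higher and 0.74% lower).

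The stretches before the starts of Bhlha15 and Id4 are shown because these genes had the largest differences among the 8, 1 in each direction. Both are 250 bases on the plus strand that end at the base before the RefSeq start on GRCm38.p6, chr5:144190036-144190285 for Bhlha15 and chr13:48260866-48261115 for Id4, and neither overlaps an exon annotated by GENCODE. Capitals mark every CANNTG and every TGGGAA on either strand (TTCCCA when read on the other), the latter being the core of the word bound by Rbpj, the DNA-binding partner of Notch intracellular domains, and neither window holds both words.
Bhlha15: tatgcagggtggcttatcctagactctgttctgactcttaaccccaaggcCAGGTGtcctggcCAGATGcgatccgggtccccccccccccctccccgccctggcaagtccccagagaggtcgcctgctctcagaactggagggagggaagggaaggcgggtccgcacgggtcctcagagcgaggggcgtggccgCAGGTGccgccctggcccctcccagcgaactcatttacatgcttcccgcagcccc
Id4: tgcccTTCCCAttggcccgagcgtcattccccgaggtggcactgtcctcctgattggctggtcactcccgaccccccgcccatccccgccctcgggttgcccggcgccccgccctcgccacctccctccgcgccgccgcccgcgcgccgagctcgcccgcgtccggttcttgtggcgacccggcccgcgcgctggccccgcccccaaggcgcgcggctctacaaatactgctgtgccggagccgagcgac
The Bhlha15 window held CAGGTG at 200 bases, CAGATG at 187 bases and CAGGTG at 55 bases before the start, and no TGGGAA. The Id4 window held no CANNTG and a single TTCCCA at 245 bases before the start. Of 32851 RefSeq windows of this length, 66.2% held at least 1 CANNTG, 12.2% held at least 3 and 21.6% held TGGGAA on either strand. Windows were examined for 6 of the 8 genes (not Id1 and Tcf4). The Id3 window held neither word, while the Id2 window held CAGCTG once. These are matches of letters, not measured binding sites.

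The Notch3 counts, which include reads from the insert, followed the labels in every set. Normalized counts were 38.7, 40.6, 70.8 and 42.0 in Control lines of Sets 1 to 4 and 4322, 467, 9220 and 5842 in Notch3IC lines, a log2 fold change of 6.69 (SE 0.88, adjusted p = 0.0169), and the call held with any single library left out. Of the known Notch targets, Hey1 and Nrarp rose by log2 fold changes of 7.35 and 7.34, Heyl was at least 1110-fold higher against a floor of 3 counts per Control library, and Hes1 was not called (0.58, adjusted p = 0.388). The Notch3IC library of Set 2 had the lowest Notch3 count of its group. That library also had the lowest Notch3IC level of Id3, Id4, Tcf4 and Tcf12, and of Id1, which was not called. Its total count, 15524262, was the lowest of the 8 libraries.

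The 8 genes covered a wide range of levels in these cells. Per kilobase of the longest coding transcript, the Control level was highest for Id3 (2675 ± 364, SD, n = 4), followed by Id1 (1711 ± 381), Id2 (1124 ± 315), Tcf3 (895 ± 199), Tcf12 (483 ± 32.3), Tcf4 (81.4 ± 13.4), Bhlha15 (63.8 ± 35.7) and Id4 (1.74 ± 0.478). Among 12279 tested genes with a length, Id3 stood at percentile 96.0 of the Control level, Tcf3 at 82.3, Tcf12 at 67.9, Tcf4 at 26.8, Bhlha15 at 23.4 and Id4 at 0.8. Control values of neighbours in this order overlapped for Id1 and Id2, for Id2 and Tcf3, and for Tcf4 and Bhlha15, and did not for the other neighbours. In the Notch3IC libraries the order was the same down to Tcf4 (228 ± 63.5 per kilobase), below which Id4 (26.8 ± 18.2) stood above Bhlha15 (13.2 ± 8.19), with overlapping values. The order of Tcf4 and Bhlha15 in Control depends on the length used, because with all annotated exons joined Tcf4 was at 25.5 ± 4.18 per kilobase and Bhlha15 stayed at 63.8 ± 35.7.

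**Figure D1:**
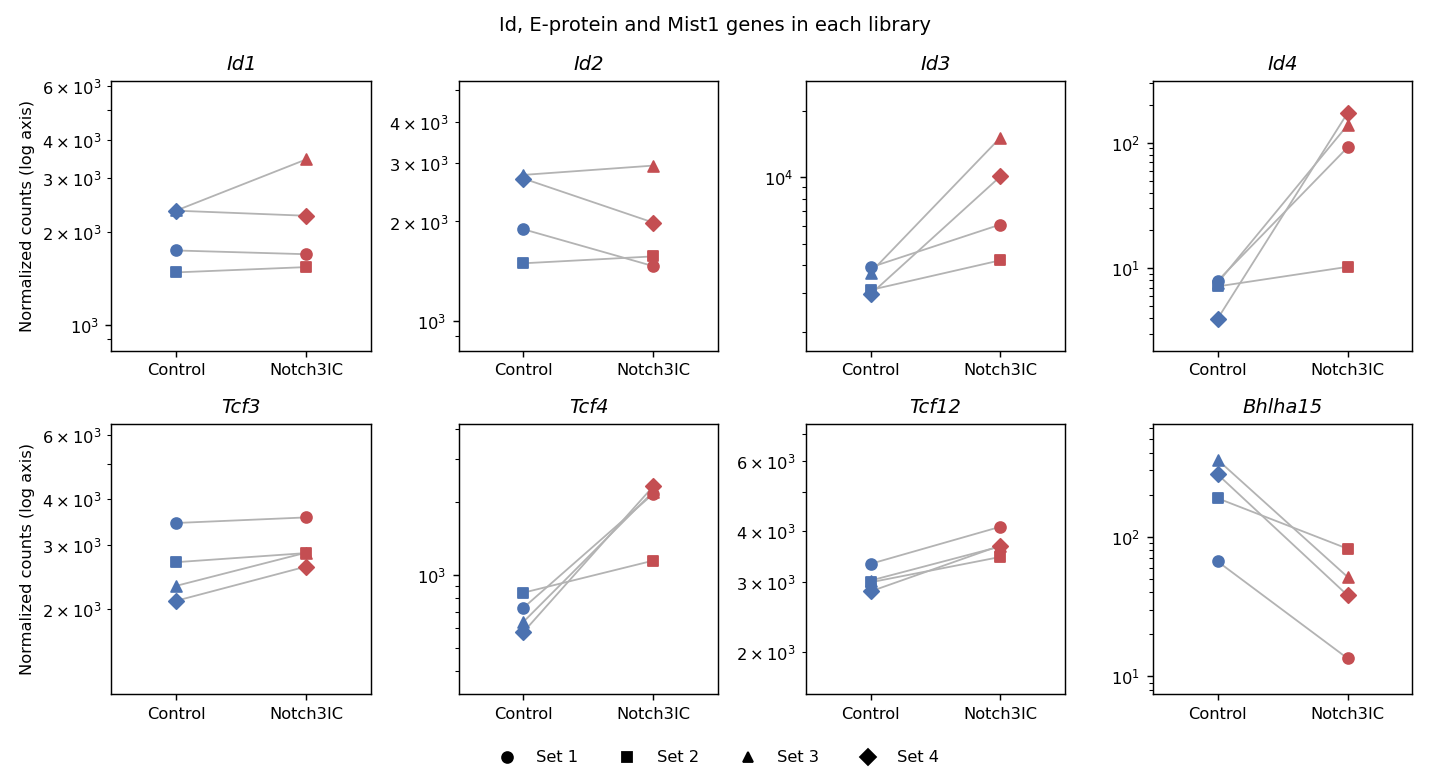
Normalized counts of the 8 genes in each library, on log axes that span different ranges, with Control at left and Notch3IC at right in each panel and lines joining the libraries of a set (circle, square, triangle and diamond for Sets 1 to 4). Id3, Id4, Tcf4 and Tcf12 were higher in every Notch3IC library than in any Control library, and Bhlha15 was lower in Notch3IC in each of the 4 sets.

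Of the Id genes, Id3 and Id4 rose in Notch3IC, while Id1 and Id2 had no difference past the test. Id3 (chr4:136143497-136145755, plus strand) was the most abundant Id transcript in these cells. Its normalized counts were 3916, 3093, 3709 and 2959 in Control lines of Sets 1 to 4 and 6112, 4213, 15112 and 10085 in Notch3IC lines. Every Notch3IC library was above every Control library, with Sets 3 and 4 highest. The mean went from 3419 ± 465 (SD, n = 4) to 8880 ± 4821, a log2 fold change of 1.38 (SE 0.36, 95% interval 0.56 to 2.20, adjusted p = 0.0797). Within Sets 1 to 4 the log2 ratios were 0.64, 0.45, 2.03 and 1.77. The call was close to the threshold. The adjusted p was 0.104, 0.151, 0.186 and 0.234 without the Control library of Set 1, 2, 3 or 4, and 0.162 and 0.219 without the Notch3IC library of Set 3 or 4, with log2 fold changes from 0.99 to 1.61 over the libraries left out one at a time. As these are bulk libraries, more cells expressing a gene and more RNA per cell cannot be told apart, here and below.

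Id4 (chr13:48261228-48266026, plus strand) was nearly silent in Control and had the largest rise of the 7 genes tested. Raw counts were 8, 6, 8 and 5 in Control lines of Sets 1 to 4 and 82, 7, 150 and 204 in Notch3IC lines. Normalized counts were 7.93, 7.16, 7.66 and 3.96 in Control lines and 91.7, 10.3, 138 and 172 in Notch3IC lines. The groups did not overlap, but Set 2 was barely above the Control libraries. With no filter on low counts the log2 fold change was 3.95 (SE 0.73, 95% interval 2.31 to 5.58, adjusted p = 0.0273), where 3.72% of 17359 genes were called (3.13% higher and 0.593% lower), and the log2 ratio was 3.45, 0.49, 4.09 and 5.28 within Sets 1 to 4. Even in Notch3IC its level per kilobase was far below that of the other Id genes. In that fit the call was lost without the Control library of Set 4 (adjusted p = 0.113) and held with any other single library left out. Other annotated genes cover 4.44% of its exon bases, mostly Gm49291 on the opposite strand.

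Id1 (chr2:152736251-152737410, plus strand) and Id2 (chr12:25093799-25097140, minus strand) were abundant in both groups. Id1 had 1746, 1481, 2357 and 2354 normalized counts in Control lines of Sets 1 to 4 and 1698, 1541, 3460 and 2266 in Notch3IC lines, and the Set 3 Notch3IC library alone stood above the Control range. Its log2 fold change was 0.18 (95% interval -0.44 to 0.79, adjusted p = 0.796). Id2 had 1895, 1496, 2765 and 2696 normalized counts in Control and 1466, 1569, 2950 and 1984 in Notch3IC, a log2 fold change of -0.15 (95% interval -0.77 to 0.47, adjusted p = 0.827). For both genes 2 of 4 sets were higher and 2 lower in Notch3IC. The intervals leave room for a change of up to 0.79 on the log2 scale in Id1. Id1 and Id2 varied together over the 8 libraries (Pearson r = 0.90 of log2 normalized counts).

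Of the E-protein genes, Tcf4 rose, Tcf12 was slightly higher in every set without being called, and Tcf3 had no difference past the test. Tcf4 lies on chromosome 18 and is the least abundant of the E-protein genes here. Its normalized counts were 731, 843, 639 and 580 in Control lines of Sets 1 to 4 and 2156, 1143, 2201 and 2317 in Notch3IC lines. The groups did not overlap, and 3 Notch3IC libraries lay close together while Set 2 lay apart below them. The mean went from 698 ± 115 (SD, n = 4) to 1954 ± 545, a log2 fold change of 1.49 (SE 0.23, 95% interval 0.96 to 2.01, adjusted p = 0.0217). Set by set the log2 ratios were 1.56, 0.44, 1.78 and 2.0. Without the Control library of Set 3 the adjusted p was 0.102, and the call held with any other single library left out.

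Tcf12 (chr9:71842688-72111871, minus strand) encodes the E protein HEB. It had 3321, 2987, 3017 and 2835 normalized counts in Control lines of Sets 1 to 4 and 4108, 3455, 3669 and 3688 in Notch3IC lines. The groups did not overlap, and the log2 ratios within sets were nearly the same, at 0.31, 0.21, 0.28 and 0.38. The log2 fold change was 0.30 (SE 0.09, 95% interval 0.09 to 0.50, adjusted p = 0.118), under the fold limit. With the set as a term in the fit the log2 fold change was 0.29 with an adjusted p of 0.0324, a threshold that 27.1% of all genes tested met in that fit without the fold limit.

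Tcf3 (chr10:80409514-80433647, minus strand) is the E-protein gene of this symbol, since the tables list Tcf7l1, a Wnt effector once given the same name, separately. Its normalized counts were 3446, 2691, 2318 and 2110 in Control lines of Sets 1 to 4 and 3569, 2850, 2858 and 2618 in Notch3IC lines. The 2 ranges overlapped. Set 1 was highest in both groups, and the difference between sets was larger than that between groups. The log2 fold change was 0.17 (SE 0.17, 95% interval -0.21 to 0.55, adjusted p = 0.655).

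Apart from Id4, whose entry into the filtered test rested on the group where it was high, 2 of the 6 other Id and E-protein genes were called higher (Id3 and Tcf4) and 0 lower, where 3.4% and 0.74% of all genes tested were called higher and lower. The fit with no filter and DESeq2 both called Id3, Id4 and Tcf4 higher and 0 lower, and 0 of the 7 were lower at an unadjusted p below 0.05 in edgeR's test. With the set as a term Id3 and Tcf4 were called of these 6, where 7.72% of all genes tested were called, 5.19% higher. With the set as a term and no filter, where 6.16% of genes were called, 4.36% higher, Id4 (log2 fold change 3.83, adjusted p = 0.0258) and Tcf4 (1.45, 0.0507) were called and Id3 was not (1.22, 0.105). Notch3IC libraries were all above Control for 4 of the 7 (Id3, Id4, Tcf4 and Tcf12), as for 7.08% of all genes tested, and 0 were all below it, as for 3.75%. The log2 ratio was above 0 in all 4 sets for 5 of the 7 (these 4 and Tcf3), as for 21% of all genes tested. With 7 genes of 2 families, chosen with these results known, the shares describe the families and do not test them. With a whole set left out, Id3 and Tcf4 were both called without Set 2, Tcf4 alone without Set 1, and neither without Set 3 or Set 4. Their log2 fold changes in these fits ran from 1.03 to 1.59 for Id3 and from 1.32 to 1.78 for Tcf4.

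**Figure D2:**
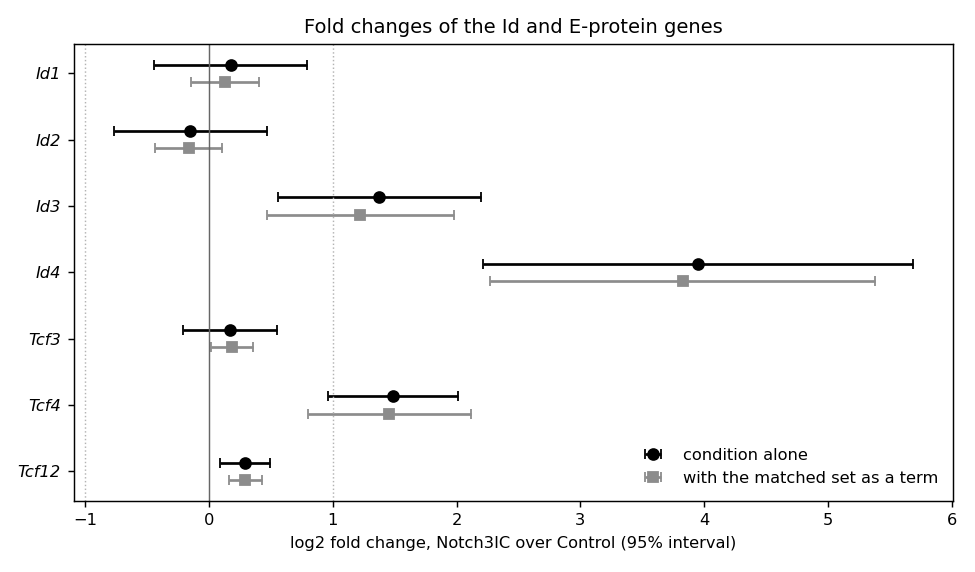
Log2 fold changes, Notch3IC over Control, of the 7 Id and E-protein genes with 95% intervals, from the fit with condition alone (black circles) and with the matched set as a term (gray squares), and dotted lines at the fold limit of 1 in each direction. Id3, Id4 and Tcf4 lie past the limit at 1.38, 3.95 and 1.49, Tcf12 lies at 0.30 with an interval above 0 in both fits, and adding the set narrows every interval but that of Tcf4, which widens, and moves no estimate across the limit. Both fits here have the filter on low counts, which Id4 entered through Notch3IC alone, so its intervals are shown as a description.

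The makeup of each family differed between the groups. Summed per kilobase over the 4 Id genes, the level was 5512 ± 783 in Control and 9919 ± 4860 in Notch3IC (SD, n = 4), and over the 3 E-protein genes it was 1459 ± 238 and 1828 ± 201. Id3 made up 55.4, 54.3, 45.8 and 40.5% of the summed Id level in Control lines of Sets 1 to 4 and 68.2, 60.8, 72.4 and 72.4% in Notch3IC lines, with no overlap. Tcf4 made up 4.79, 6.62, 5.57 and 5.49% of the summed E-protein level in Control and 11.9, 8.09, 14.2 and 15.5% in Notch3IC, again with no overlap. Tcf3 and Tcf12 were the main E-protein transcripts in all 8 libraries. The summed Id level was 3.11, 3.0, 4.73 and 4.64 times the summed E-protein level in Control and 3.32, 3.29, 9.04 and 6.25 times in Notch3IC. These ratios overlapped between the groups, since Sets 1 and 2 in Notch3IC were below Sets 3 and 4 in Control, and within each of the 4 matched sets the ratio was higher in Notch3IC. They are sums of RNA and hold no measure of protein or of pairing.

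**Figure D3:**
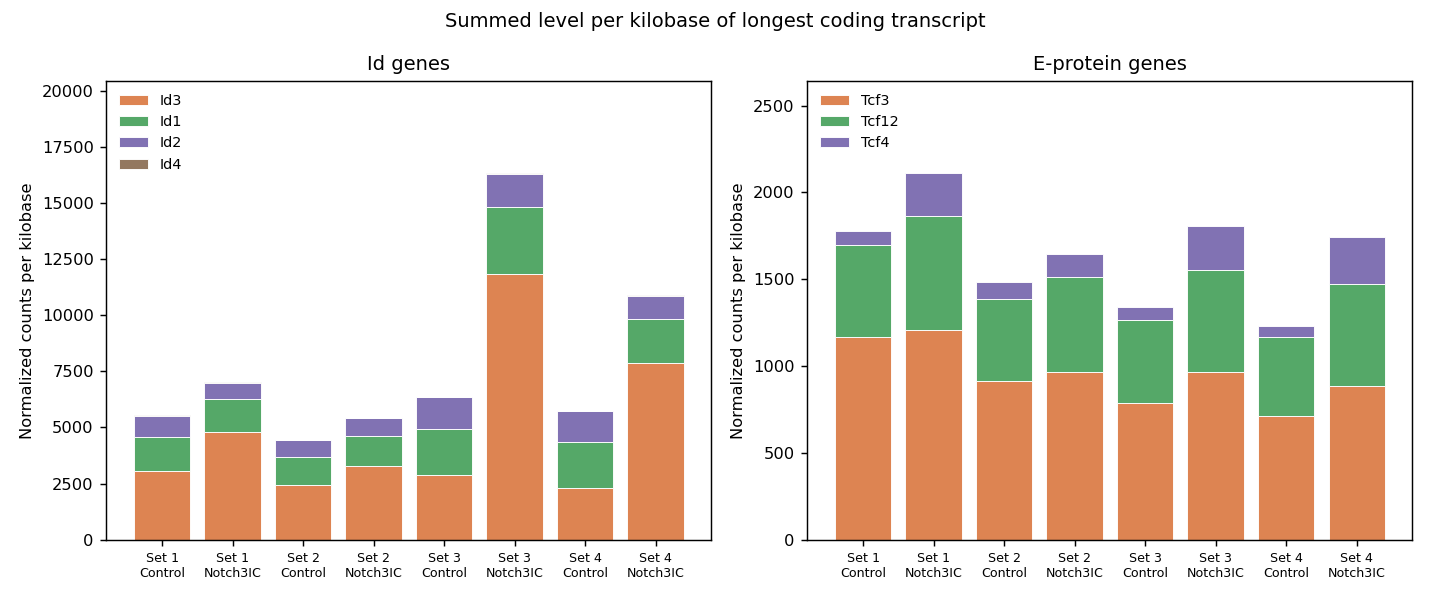
Stacked bars of normalized counts per kilobase of longest coding transcript in each library, for the Id genes (left, Id3 at the bottom, then Id1 and Id2, with Id4 too low to see) and the E-protein genes (right, Tcf3 at the bottom, then Tcf12 and Tcf4), on different vertical scales that start at 0. The tallest Id bars are the Notch3IC libraries of Sets 3 and 4, where Id3 makes up 72.4% of the sum, and the Tcf4 segment is larger in Notch3IC in every set.

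Over the 8 libraries, Id4 and Tcf4 had a Pearson correlation of log2 normalized counts of 0.97, Id3 and Id4 of 0.93, and Tcf12 and Bhlha15 of -0.96. All of these points share the difference between the groups and the matched sets, so the values are descriptions only.

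Bhlha15 (chr5:144190286-144194441, plus strand) was lower in the Notch3IC library of every set. Raw counts were 67, 158, 372 and 353 in Control lines of Sets 1 to 4 and 12, 56, 56 and 45 in Notch3IC lines. Normalized counts were 66.4, 189, 356 and 280 in Control lines and 13.4, 82.1, 51.5 and 38.0 in Notch3IC lines. The groups overlapped because the Set 1 Control library was below the Set 2 Notch3IC library. The mean was 223 ± 125 (SD, n = 4) in Control and 46.3 ± 28.6 in Notch3IC, a log2 fold change of -2.28, and set by set the log2 ratios were -2.27, -1.20, -2.78 and -2.86 (SD 0.77). Across the libraries and sets left out in turn the log2 fold change ranged from -2.75 to -1.96. For this gene 0.74% of all genes tested were called lower and 19.4% were lower in all 4 sets, values given for scale because the gene was chosen for this difference. Set 2, with the lowest Notch3, had the ratio nearest 0.

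Most markers of the ovarian surface epithelium and mesothelium had lower counts in Notch3IC, as Bhlha15 did. The list held 8 genes, of which 7 were tested and 6 had a log2 fold change below 0. Of the 7, 1, Msln, was called lower, where 0.74% of all genes tested were. Their median log2 fold change was -0.80 against -0.01 over all genes tested. The summed normalized counts of the list were 28744, 43968, 68226 and 65816 in Control lines of Sets 1 to 4 and 14884, 29543, 29161 and 23873 in Notch3IC lines. Set 1 was thus lowest in Control for the list as for Bhlha15. Msln, which encodes mesothelin, had 1191, 1582, 3000 and 3625 normalized counts in Control and 82.8, 780, 314 and 381 in Notch3IC, a log2 fold change of -2.60 (SE 0.63, adjusted p = 0.0625). That call was lost without the Control library of Set 3 (adjusted p = 0.162) or Set 4 (0.185), or with Notch3IC of Set 3 (0.180) or Set 4 (0.195) left out.

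Upk3b, a uroplakin that marks mesothelium and the most abundant gene of the list, had 7889, 19340, 31801 and 28255 normalized counts in Control lines of Sets 1 to 4 and 993, 10704, 9110 and 5731 in Notch3IC lines. Its log2 fold change was -1.72 (adjusted p = 0.22), and with the set as a term it was -1.98 (adjusted p = 0.0319). The keratin gene Krt19 had a log2 fold change of -2.12 (adjusted p = 0.124), and with the set as a term -2.10 (adjusted p = 0.0288). Upk3b and Krt19 were called lower with the set as a term, where 2.53% of all genes tested were. Wt1, a transcription factor of mesothelium, stood at 6312, 11837, 16410 and 14782 in Control lines and 3510, 9335, 8230 and 7255 in Notch3IC lines (log2 fold change -0.80, adjusted p = 0.283). The list was thus present in every library, as the labelled cell type would have it, except for Krt7, which had too few counts to pass the filter. The cadherin gene Cdh2 had a log2 fold change of 0.08 (adjusted p = 0.886). The part of these markers in the Bhlha15 result was not tested.

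**Figure D4:**
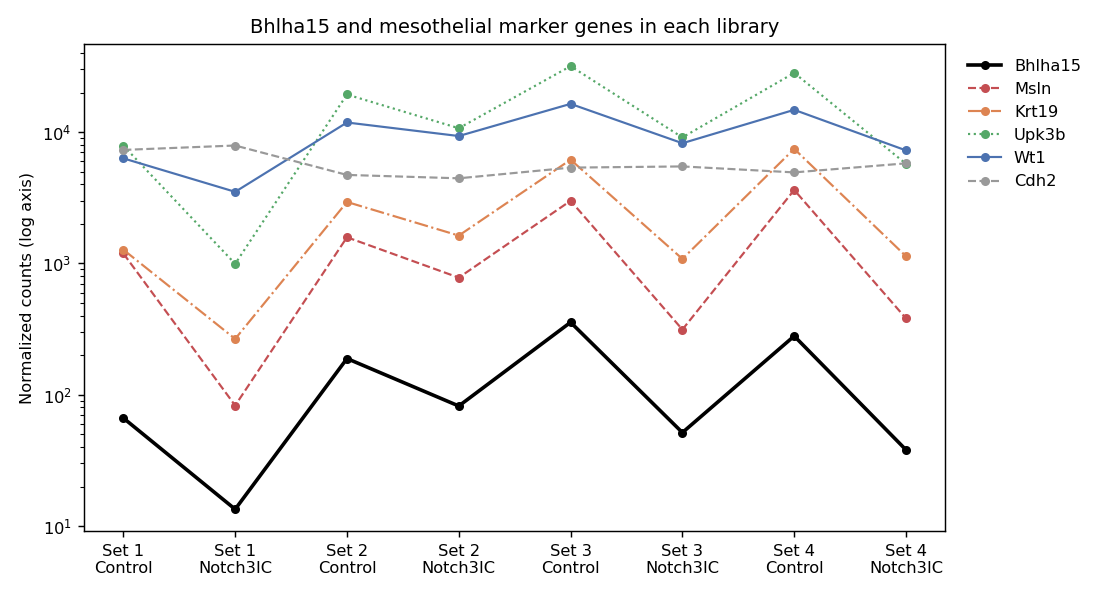
Normalized counts on a log axis of Bhlha15 (thick black line) and of Msln, Krt19, Upk3b, Wt1 and Cdh2 in the 8 libraries, ordered by set with Control before Notch3IC, where the lines only help the eye to follow a gene. Bhlha15, Msln, Krt19, Upk3b and Wt1 step down from Control to Notch3IC in each set, and Cdh2 stays between 4449 and 7906.

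Among the genes whose pattern over the 8 libraries was most like that of Bhlha15, by Pearson correlation of log2 normalized counts among the genes tested, were Pxn (0.994), Itfg3 (0.992), Ptpn13 (0.989) and Efemp1 (0.989). The 5 genes most like Id3 were Arvcf (0.989), Gpr137b (0.988), Npl (0.985), Wipi1 (0.984) and Amz2 (0.983). For Tcf3, the E-protein gene with the highest level per kilobase, the 5 most alike were Ppib and Rela (both 0.988), Npy1r (0.980), Pcbp4 (0.979) and Haus4 (0.979). The spans differed more than the correlations. Efemp1, which encodes a secreted fibulin, had 1391, 2750, 4181 and 3580 normalized counts in Control lines of Sets 1 to 4 and 346, 1644, 1247 and 1057 in Notch3IC lines. Pxn, which encodes the focal adhesion protein paxillin, ran only from 2116 to 4400.

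Markers of the cell types in which Mist1 is best known were of mixed level. Of 7 acinar and chief cell markers listed, 0 passed the filter on low counts and Ptf1a and Amy2a5 were at 0 in all libraries. The 7 together summed to between 5.9 and 16.8 normalized counts per library. Of the plasma cell markers, Irf4 and Tnfrsf17 were at 0 in 7 of 8 libraries each, while Sdc1, which encodes syndecan and is also made by epithelial cells, was abundant (log2 fold change 0.46, adjusted p = 0.238). Prdm1, which encodes Blimp-1, a repressor of transcription and a plasma cell regulator, never passed 2 raw counts in Control and had 205, 52.8, 32.2 and 130 normalized counts in Sets 1 to 4 of Notch3IC. It was at least 35.6-fold higher against a floor of 3 counts per Control library, and it was called with no filter on low counts (adjusted p = 0.0123). Cd38, which encodes a surface enzyme of plasma cells and other leukocytes, had 1.98, 0, 0.957 and 1.59 normalized counts in Control lines of Sets 1 to 4 and 28.0, 1.47, 17.5 and 11 in Notch3IC lines. It was higher in all 4 sets and at least 4.9-fold higher against the same floor. Cd38 had too few counts to pass the filter, and no test is given for it. The part of these markers in the Bhlha15 result was not tested either. Among leukocyte markers Ptprc was at 0 in 7 of 8 libraries and Cd3e in all, and Csf1r, a receptor gene at 6.7 to 11.9 normalized counts in Control and 14.7 to 40.3 in Notch3IC, passed the filter on low counts through Notch3IC. With no filter it was called higher (log2 fold change 1.51, adjusted p = 0.0859), and that call was lost, at adjusted p from 0.112 to 0.263, with any single library left out other than Notch3IC of Set 2. Cd68, a macrophage marker, was not called (log2 fold change -0.40, adjusted p = 0.61). The endothelial markers Pecam1 and Kdr had at most 25.3 normalized counts in any library and neither was called.

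Most partners, cofactors and pathway genes around the Id and E-protein factors were not called. Over 8 lists, 58 of 102 genes present in the tables were tested, 4 were called higher and 2 lower, and 10.3% were called where 4.14% of all genes tested were. Of the 58, 3 (Cbfa2t3, Dlx3 and Cdkn1c) had a mean raw count below 10 in 1 group and so entered through the other, and among the 55 others 3 were called higher and 1 lower. The median log2 fold change over the 58 genes was 0.05 against -0.01 over all genes tested, and 24.1% had an unadjusted p below 0.05 against 18.4%. With the set as a term, where 5.19% of all genes tested were called higher and 2.53% lower, 6 were called higher and 3 lower, adding Grem1, Cdkn1c and Scx, and among the 55 others 4 were called higher and 2 lower. DESeq2 called the same 4 and 2 genes as edgeR with condition alone.

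Most tissue-restricted partners of E proteins were silent. Of 42 in the tables, 24 had 0 counts in every library, among them the muscle regulator Myod1 and the neural regulator Neurog1, and 7 were tested. Of these 7, 0 were called higher and 1 lower, where 3.4% and 0.74% of all genes tested were. An unadjusted p below 0.05 in edgeR's test was met by 2 of the 7, against 18.4% of all genes tested, and their median log2 fold change was 0.06. The lower one was Hand2, a regulator of heart and limb development that is also expressed in stromal cells of the reproductive tract. Its normalized counts were 483, 598, 760 and 509 in Control lines of Sets 1 to 4 and 163, 336, 195 and 161 in Notch3IC lines, with no overlap. The log2 fold change was -1.47 (SE 0.27, adjusted p = 0.0306). The call was lost without the Control library of Set 3 (adjusted p = 0.107) or Set 4 (0.103) or the Notch3IC library of Set 4 (0.108). Atoh8 was the most abundant partner per kilobase (log2 fold change 0.18, adjusted p = 0.706), and Twist2, a mesenchymal factor, had a log2 fold change of 0.55 (adjusted p = 0.103). Scx, the tendon regulator scleraxis, had a log2 fold change of -1.16 (adjusted p = 0.361), and it was called lower with the set as a term (-1.61, adjusted p = 0.0751, or 0.135 and not called with no filter on low counts) and with Notch3IC of Set 2 left out (-2.20, adjusted p = 0.00595).

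Of 9 cofactor genes, 8 were tested, with a median log2 fold change of 0.04. Of the 8, 1 was called higher and 0 lower, where 3.4% and 0.74% of all genes tested were. The coactivator gene Ep300 (-0.06, adjusted p = 0.856) and the adaptor genes Lmo4 (0.13, adjusted p = 0.541) and Ldb1 (0.25, adjusted p = 0.343) had log2 fold changes near 0. Cbfa2t3, a corepressor of the ETO family that E proteins recruit, had 0, 1.19, 11.5 and 4.76 normalized counts in Control lines of Sets 1 to 4 and 172, 14.7, 396 and 261 in Notch3IC lines. Again Set 2 was lowest in Notch3IC, just above the highest Control library. Raw counts were at most 12 in Control, and the gene passed the filter on low counts through its Notch3IC libraries. With no filter the log2 fold change was 5.52 (SE 1.06, adjusted p = 0.03), and the call was lost without the Control library of Set 4 (adjusted p = 0.124). The 4 genes for Id turnover were all tested and 0 were called in edgeR's test, where 4.14% of all genes tested were. At an unadjusted p below 0.05 there were 0 of the 4, against 18.4% of all genes tested. Among them were Usp1, the deubiquitinase that stabilizes Id proteins (log2 fold change -0.17, adjusted p = 0.706), its cofactor Wdr48 (0.00, adjusted p = 1) and Fzr1, an activator of the anaphase-promoting complex that marks Id proteins for degradation (-0.09, adjusted p = 0.711).

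Of the BMP receptors and Smads upstream of Id genes, all 11 were tested and 0 were called, where 4.14% of all genes tested were. Their median log2 fold change was 0.20, and 4 had an unadjusted p below 0.05 in edgeR's test, against 18.4% of all genes tested. The type I receptor gene Acvr1 was closest, with a log2 fold change of 0.71 that was under the fold limit (adjusted p = 0.0467). Smad4 (0.20, adjusted p = 0.483) and Bmpr1a (-0.05, adjusted p = 0.872), named for their level, were not called. Of the 11 genes, 8 had a log2 fold change above 0 and 3 below. Among 15 other BMP-Smad response genes 12 were tested, with a median of 0.22. Of the 12, 1 was called higher and 1 lower, where 3.4% and 0.74% of all genes tested were. These 2 were homeobox genes of the same family that moved in opposite directions. Dlx5 had 205, 210, 64.1 and 69.8 normalized counts in Control lines of Sets 1 to 4 and 526, 421, 480 and 680 in Notch3IC lines, a log2 fold change of 1.95 (SE 0.42, adjusted p = 0.0467). Dlx3 had 35.7, 31.0, 68.9 and 95.9 in Control lines and 3.36, 14.7, 11 and 2.53 in Notch3IC lines, and it passed the filter on low counts through its Control libraries. With no filter its log2 fold change was -2.91 (SE 0.61, adjusted p = 0.0383). The groups did not overlap for either gene. The Dlx5 call was lost without the Control library of Set 3 (adjusted p = 0.117) or Set 4 (0.138), or the Notch3IC library of Set 3 (0.114) or Set 4 (0.144). The Dlx3 call with no filter was lost without the Control library of Set 3 (0.12) or Set 4 (0.133) or the Notch3IC library of Set 4 (0.117). The feedback inhibitor Smad6 had a log2 fold change of -0.01 (adjusted p = 0.979) and the secreted regulator Bmper one of -0.36 (adjusted p = 0.584), both named for their level. Of the 12 response genes tested, 7 had a log2 fold change above 0 and 5 below. Grem1, which encodes the BMP antagonist gremlin, had a log2 fold change of 1.31 (adjusted p = 0.343), and with the set as a term it was called higher (1.52, adjusted p = 0.036).

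In edgeR's test with condition alone, 1 gene that E proteins or Mist1 are reported to drive was called, where 4.14% of all genes tested were. Among 5 CDK inhibitor genes, 3 were tested and 0 were called in edgeR's test. Of the 3, 1 had an unadjusted p below 0.05, against 18.4% of all genes tested, and Cdkn2a and Cdkn2b had 0 counts in every library. Cdkn1a had a log2 fold change of 0.92 (adjusted p = 0.416) and Cdkn1b one of 0.03 (adjusted p = 0.954). With no filter on low counts, Cdkn1c was at 1.61 (adjusted p = 0.184), and it was called higher with the set as a term (1.56, adjusted p = 0.0527) and with Notch3IC of Set 1 left out (1.92, adjusted p = 0.0678). Of 7 reported Mist1 targets 5 were tested, 1 was called higher and 0 lower, with a median log2 fold change of 0.66. Copz2, a subunit of the vesicle coat of the secretory pathway, had 440, 701, 480 and 409 normalized counts in Control lines of Sets 1 to 4 and 1059, 913, 1151 and 1242 in Notch3IC lines. Its log2 fold change was 1.11 (SE 0.18, adjusted p = 0.0247), the opposite direction to Bhlha15, and it was 1.08 (adjusted p = 0.104) without the Control library of Set 3. Ccpg1, a receptor for turnover of the endoplasmic reticulum, had a log2 fold change of 0.00 (adjusted p = 0.992).

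Xbp1, which drives Bhlha15 in secretory cells, was abundant and had a log2 fold change of -0.19 (adjusted p = 0.685). Of 11 genes of Xbp1 and the endoplasmic reticulum 10 were tested, with a median of -0.25. Of the 10, 1 was called higher and 0 lower, where 3.4% and 0.74% of all genes tested were. Creb3l1, a membrane-bound factor that drives secretory and collagen genes, had 5406, 5257, 3847 and 3181 normalized counts in Control lines of Sets 1 to 4 and 16497, 6616, 11572 and 10596 in Notch3IC lines. The groups did not overlap, and the log2 fold change was 1.36 (SE 0.28, adjusted p = 0.0444). The adjusted p was 0.143 and 0.142 without the Control library of Set 3 or 4, and 0.114 and 0.125 without the Notch3IC library of Set 3 or 4. The chaperone gene Hspa5 was at -0.18 (adjusted p = 0.662). Ern1, the sensor kinase that activates Xbp1 by splicing, was named after its values were seen, and it had a log2 fold change of -0.72 (adjusted p = 0.0298), under the fold limit.

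**Figure D5:**
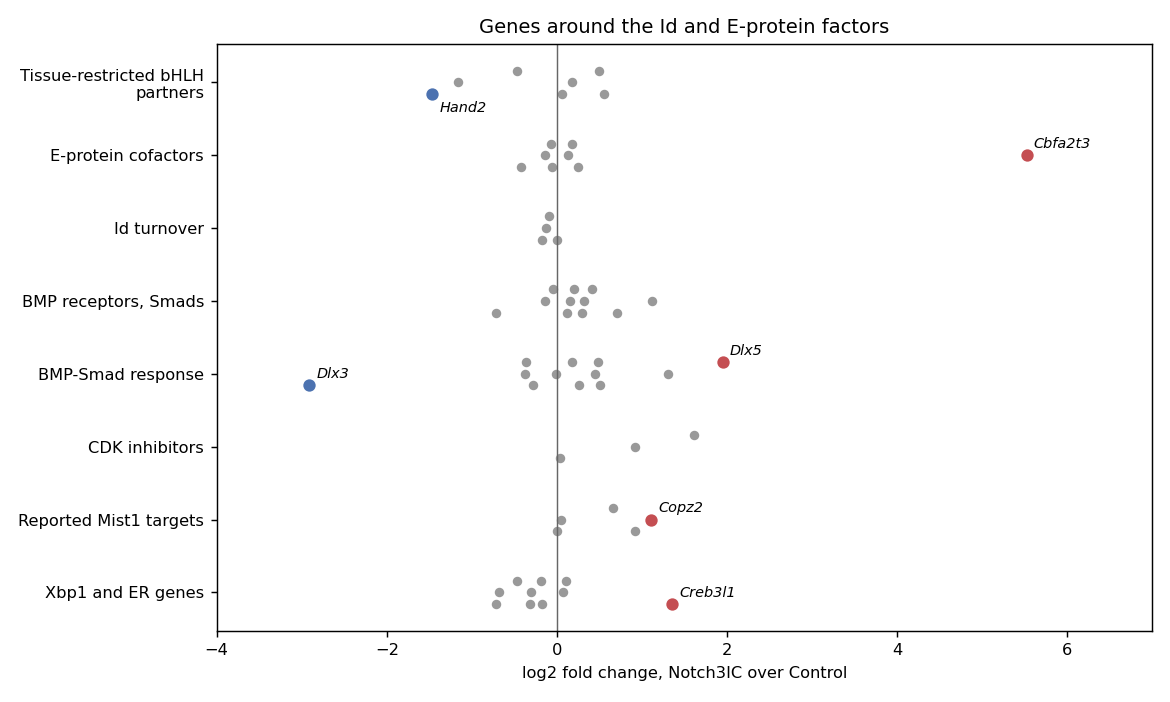
Log2 fold changes, Notch3IC over Control, of the tested genes of 8 lists around the Id and E-protein factors, 1 point per gene in a list, with called genes named and colored (red higher, blue lower) and the others gray. Most points lie within 1 of 0, and the called genes run from Dlx3 at -2.92 to Cbfa2t3 at 5.52. All values are from the fit with the filter on low counts, which Dlx3 entered through Control and Cbfa2t3 through Notch3IC.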

How the data were processed

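Poly-A RNA from 4 Control and 4 Notch3IC lines was sequenced as single-end reads. For each library the authors deposited a table of raw read counts by gene symbol, and the submitters' processing notes name TopHat, Cufflinks, DESeq and the build mm9. The annotation and strandedness are not given in the sources used here. Positions, lengths and overlaps are from GENCODE M21 on GRCm38, used for annotation only, and promoter windows from RefSeq on GRCm38.p6.

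Notch3IC was compared with Control with edgeR 4.0.16 in R 4.3.3 (TMM, filterByExpr by condition, robust quasi-likelihood test, condition as the only term), with adjustment by Benjamini-Hochberg over all 12430 genes tested. The thresholds, an adjusted p below 0.1 and at least 1 log2 unit of change, are those of the study. Log2 ratios within a set used a pseudocount of 0.5. SE is the standard error of the log2 fold change, derived from the F statistic, and ± is the SD over 4 libraries. The biological coefficient of variation was 26.3%, or 14.1% with the set as a term. P-values measure the spread between lines from separate infections. The test was tried on simulated data.

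The labels number the sets, and the study describes each as a pair of lines made together. Over genes, the offsets of a pair's libraries from their group means had correlations of 0.79, 0.41, 0.57 and 0.43 for Sets 1 to 4, while libraries of different sets had -0.51 to 0.40, so the set was used as a term in an alternative fit.

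The members and the gene lists were chosen with earlier results of these data known. Genes named are the 8 members, Notch3 and its targets, in each list the called genes and the 3 tested genes with the highest level per kilobase (mean over the 8 libraries), and the 5 genes most alike to Bhlha15, Id3 and Tcf3, of which 1 is not reported here. Other marker genes, Myod1, Neurog1, Cdkn2a, Cdkn2b, Tcf7l1, Tcf7l2, Ern1, Grem1 and genes called only in an alternative were named after their values were seen. Alternatives were DESeq2 1.42.0, RLE factors, library totals, no filter, at least 10 counts in every library, the set as a term, an adjusted p below 0.05, no fold limit, and leaving out each library or set. Id4, Cbfa2t3, Dlx3, Cdkn1c, Csf1r and Prdm1, low in 1 group, are given from the fit with no filter, and leaving out each library from that fit or adding the set to it was chosen after the data were seen. Figures were drawn with Matplotlib 3.10.9 in Python 3.11.15.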

Additional observations from a re-analysis of the deposited data

Results flagged for a closer look

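Groups of 4 libraries were searched for the members, Notch3 and the total counts per library, 20 groups in all. Of these, 2 had a library whose gap to its nearest neighbour was a larger share of the group's range than Dixon's 95% critical value for 4 samples. About 1 such group is given by chance. For Tcf4 in Notch3IC the Set 2 library stood apart at 1143 normalized counts, with the nearest library at 2156, a gap of 0.863 of the range. For Notch3 in Control the Set 3 library stood apart at 70.8 normalized counts, with the nearest at 42.0, a gap of 0.896 of the range. Outside the search, where the genes looked at were not counted, the Set 1 library also stood apart for Hes1 in Notch3IC, at 1227 normalized counts with the nearest at 549. The same held for Xbp1 in Notch3IC, where Set 1 was at 3338 and the nearest library at 4482.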

How the results depend on the processing

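The direction of Id3, Id4, Tcf4, Tcf12, Tcf3, Id2 and Bhlha15 was the same under every alternative run. Id3 and Tcf4 were called with DESeq2, RLE factors, library totals and no filter, and Id4, which entered the filtered fits through Notch3IC alone, with DESeq2 and no filter. When each library had to reach 10 counts, which Id4, Cbfa2t3 and Dlx3 did not pass, 2 of the 7 were called (Id3 and Tcf4), and of the list genes 3 were called higher and 1 lower (Hand2). In that fit 301 of 11514 genes were called higher and 73 lower. At an adjusted p below 0.05, Tcf4 was still called and Id3 was not, and Id4 met that limit in edgeR's test with no filter (0.0273). With the matched set as a term (replicate block), the log2 fold change was 1.22 for Id3 (adjusted p = 0.0557), 1.46 for Tcf4 (0.0334) and -2.30 for Bhlha15. With the pairing and no filter, a setting chosen after seeing the data, Id3 was no longer called (1.22, adjusted p = 0.105), while Id4 (3.83, 0.0258) and Tcf4 (1.45, 0.0507) were. The pairing alone changed no call among the 7, and among all genes tested it raised the called genes from 423 to 645 higher and from 92 to 315 lower, while DESeq2, which tested 17359 genes, called 679 and 180. With a library or a whole set left out, with or without the pairing, 0 to 3 of the 7 genes were called higher and 0 lower, 0 to 6 list genes were called higher and 0 to 3 lower, and the log2 fold change of Bhlha15 was between -2.75 and -1.96. With the pairing and Set 1 left out, 0 of the 7 were called, with 5 at an unadjusted p below 0.05. Fits with 3 libraries in a group have less power by construction, and a filtered or unfiltered fit adjusts over another number of genes. The values that changed sign all lay near 0. Ccpg1 was 0.01 with the replicate block, Smad6 was 0.03 with it and without Set 1, Id1 was -0.01 with it and without Set 3, and Cdkn1b was -0.01 with it and without Set 4, and with libraries or sets left out of the filtered fit the log2 fold changes of Id1 ran from -0.11 to 0.32, Ccpg1 from -0.14 to 0.10, Cdkn1b from -0.09 to 0.15, Smad6 from -0.15 to 0.08, Bmpr1a from -0.10 to 0.02 and Ep300 from -0.14 to 0.02. Scaling moved the median of all genes tested by at most 0.04 on the log2 scale. With each library left out and no filter on low counts, also chosen after seeing the data, Id1 was -0.12 without Notch3IC of Set 3, Cdkn1b was -0.06 without Control of Set 1 and -0.02 without Notch3IC of Set 4, and Smad6 was 0.06 without Control of Set 3 and 0.07 without Notch3IC of Set 1. Id4, Cbfa2t3, Heyl and Prdm1 had few counts in Control, so the size of their rise is poorly set.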

Other observations

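The HMG-box genes Tcf7l1 and Tcf7l2, effectors of Wnt signaling whose names resemble those of the E-protein genes, were higher in Notch3IC in all 4 sets. Tcf7l1 had a log2 fold change of 0.90 (SE 0.14, adjusted p = 0.0195) and Tcf7l2 one of 0.73 (SE 0.19, adjusted p = 0.0741), both under the fold limit. An adjusted p below 0.1 without the fold limit was met by 6.69% of all genes tested.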
